A study of Drosophila melanogaster with 9 samples.

Results

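The genes described here are 43 innate immune genes of Drosophila melanogaster, measured in whole adult flies that had spent 2.5 h in normoxia, constant hypoxia or intermittent hypoxia. They comprise 23 effectors (antimicrobial peptides, Bomanins and lysozymes), 10 recognition genes (peptidoglycan recognition proteins and thioester proteins) and 10 genes of the Toll and Imd signalling pathways. A gene was taken when the single symbol of its probe set began with PGRP-, Drs, Att followed by A to D, Cec, Dpt, Bom, Lys followed by a capital letter or Tep followed by a digit, or was on a short list of Toll, Imd and peptide genes. The rule used symbols and no measured value. It found 47 probe sets of 44 genes, out of 11982 genes with a named probe set, and the brightest probe set stood for each gene. The remaining gene was LysRS, a lysyl-tRNA synthetase caught by the spelling of its symbol. It differed from normoxia by -0.01 in constant and 0.11 in intermittent hypoxia on the log2 scale and is left out of every count below.

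All flies were wild type Canton-S adults, 5 to 6 days old, of both sexes, and RNA came from the whole organism. Each exposure held 25 males and females. The groups were normoxia (NC), constant hypoxia at 1% O2 (CH), and intermittent hypoxia (IH), in which 4 min periods at 1% O2 and at 21% O2 took turns, all for 2.5 h, with 3 arrays in each group. In IH, ramps between these O2 levels, slower on the way down, made each cycle longer than the 4 min periods alone. It is not stated that each array of a group came from its own exposure, so every p-value measures only the spread between these arrays, which may be technical. In RNA from whole flies, fewer cells of a type and less RNA per cell cannot be told apart.

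Flies have no antibodies and meet microbes with secreted peptides, most of them made in the fat body and the blood cells. In the Toll pathway, proteases in the hemolymph cleave the ligand Spätzle, the receptor Toll signals through Myd88, tube and the kinase pelle, and loss of the inhibitor cactus frees the NF-kappaB factors Dif and dorsal, whose targets include Drosomycin and the Bomanins. In the Imd pathway, peptidoglycan bound by PGRP receptors signals through imd, Fadd, the caspase Dredd and the kinase subunit key to the NF-kappaB factor Relish, whose targets include Diptericin, Cecropin and Attacin.

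The data are array signals in linear units, and differences below are of group means of log2(signal + 16), which understates the change of dim genes. A gene was called when limma gave an adjusted p under 0.05 over all probe sets, the fold passed 1.5 or fell under 0.67, and all 3 arrays lay above, or all below, the mean of the group compared with. Signals of different genes served to choose which are shown in full and were added up in sums over gene lists. In such sums bright probe sets weigh most, and signals were not otherwise compared between genes. On single arrays the median signal ran from 594 to 823, and 3 of the 43 genes (Drsl6, PGRP-SB2 and Tep5Psi) had a mean signal under 100. The mean log2 signal of the 18S ribosomal RNA probe sets stood at 6.88 to 7.40 on NC arrays, 8.19 to 9.68 on CH arrays and 7.07 to 10.5 on IH arrays, so every CH array lay above every NC array in this measure. Its part in the differences below was not tested.

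Constant hypoxia left the immune genes without a call. None of the 43 passed the test of CH against NC, where 0.00835% of all genes did, and the smallest adjusted p among them by limma was 0.790, for Rel. At an unadjusted limma p under 0.05 with no limit on the fold, 1 of 43 (2.33%) was higher in CH, against 2.16% of all genes, and 0 were lower, against 1.67%. Counted by arrays that did not overlap, 3 of 43 (6.98%) were higher in CH, all of them signalling genes (Rel, Dif and imd), where 7.02% of all genes were. Only Drsl4 (2.33%) had every CH array below every NC array, where 6.7% of all genes did. All these shares of the 43 were near or below those of all genes. Within the signalling class alone, 3 of 10 (30%) had every CH array above every NC array and 0 had every one below. Every CH array was higher for 0% of effectors and 0% of recognition genes. The signalling share rests on 3 genes.

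The classes had different medians in CH. Of the 23 effectors, 4 had a mean difference above 0 and 19 below, with a median of -0.23. The recognition genes were split evenly, 5 above and 5 below, with a median of 0.00, and 8 of the 10 signalling genes were above 0 with a median of 0.06. Over all genes the median was -0.01 and 48.6% were above 0. On single arrays the median effector stood at -0.11, 0.03 and 0.06 relative to the NC mean in NC, and at -0.39, 0.05 and -0.12 in CH. Thus CH arrays 1 and 3 lay below all NC arrays and CH array 2 within their range. The effector median was -0.07 without CH array 1 and -0.36 without CH array 2. With each array centred on its median, 5 of 10 signalling genes were above 0 in place of 8, with a median of 0.02. The same centring moved the median of all genes to -0.05, with 40.9% above 0.

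Intermittent hypoxia gave no call in any gene, immune or other (0%), and the smallest adjusted p by limma among the 43 was 0.9999. At an unadjusted limma p under 0.05, Drsl1 was higher (2.33%, against 0.976% of all genes) and BomS4 and BomT2 were lower (4.65%, against 1.56%). By arrays that did not overlap, imd was higher (2.33%, against 2.4%) and the same pair of Bomanins lower (4.65%, against 3.7%). These are shares of 1 and 2 genes. The effectors had a median of -0.15 with 6 of 23 above 0, and this median was -0.04 without IH array 3, -0.33 without IH array 2 and -0.07 with median centring. Recognition genes had a median of 0.10 with 7 of 10 above 0, and signalling genes 0.02 with 6 of 10 above 0. Over all genes the IH median was -0.02 and 45% were above 0. With median centring the median of all genes was 0.06 and 62.8% were above 0. Under that centring 9 of 23 effectors, 8 of 10 recognition genes and 9 of 10 signalling genes were above 0. CH and IH were both compared with the same NC arrays, so these counts are not independent of those for CH.

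The direct comparison of CH with IH also gave 0 calls among the 43, where 0.025% of all genes were called, and the smallest adjusted p by limma was 0.999. By its brightest probe set, no immune gene had an unadjusted limma p under 0.05 in either direction, against 2.54% of all genes higher and 1.09% lower in CH. Arrays did not overlap for BomS4, LysS and Rel, which were higher in CH (6.98%, against 4.1% of all genes), and for AttD, which was lower (2.33%, against 3.07%). Recognition genes had a median of -0.13 with 2 of 10 above 0, effectors 0.00 with 12 of 23 above 0, and signalling genes 0.06 with 6 of 10 above 0. Centring each array on its median moved the median of all genes in this comparison by -0.125, to -0.10, and then effectors stood at -0.12, signalling genes at -0.07 and recognition genes at -0.26.

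**Figure D1:**
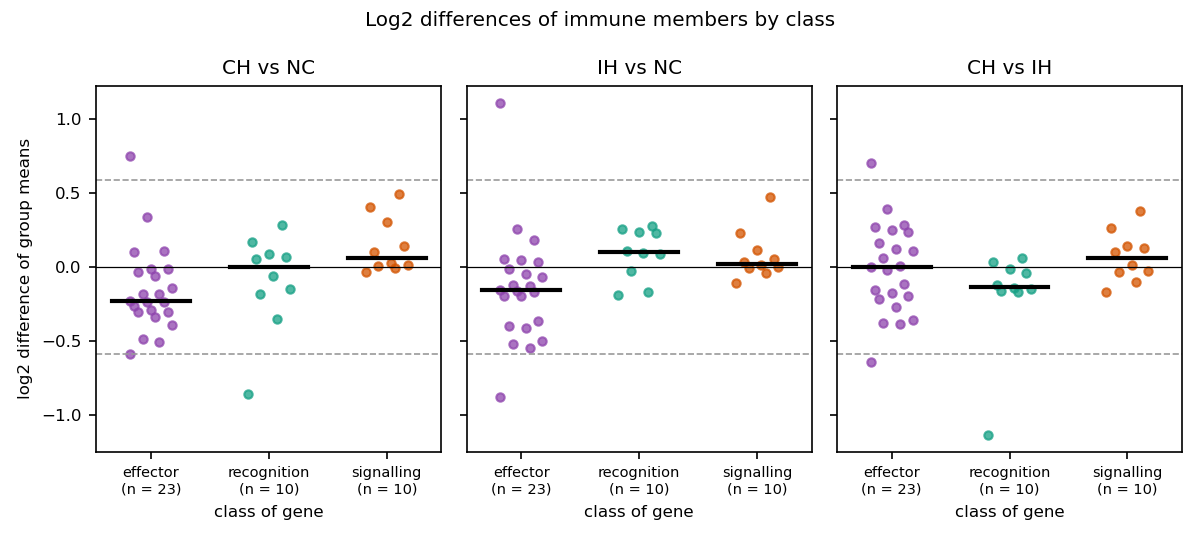
Log2 differences of group means for each immune gene (points), by class, for the comparisons CH vs NC, IH vs NC and CH vs IH. Bars are class medians and dashed lines mark the fold limit of 1.5 in each direction; the effector medians lie at -0.23, -0.15 and 0.00.

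Among the recognition genes, no peptidoglycan recognition protein separated hypoxic from normoxic arrays. PGRP-LE, an intracellular receptor for peptidoglycan, lay between 4110 and 5171 on all 9 arrays. PGRP-LF, a receptor that dampens Imd signalling, had the highest PGRP difference in CH, 0.29 with SE 0.23, and 0.25 in IH. Its arrays overlapped between all groups. PGRP-LA, a regulator of the Imd pathway, differed by 0.06 in CH and 0.10 in IH, and PGRP-LB, a secreted amidase that removes peptidoglycan, by 0.17 and 0.11. For PGRP-LB the 95% interval in CH ran from -0.24 to 0.58.

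PGRP-SC2 and PGRP-SB1, both amidases that cut peptidoglycan, are shown in full as the brightest probe sets of the family. PGRP-SC2 gave 10918, 17483 and 15898 in NC, 13771, 14586 and 17449 in CH, and 12631, 20190 and 19385 in IH. The 3 groups overlapped, and the array numbered 1 was the lowest of each. PGRP-SB1 gave 15348, 7675 and 11814 in NC, 12872, 6432 and 8098 in CH, and 21456, 8728 and 5019 in IH. Here array 1 was the highest of each group, and the IH arrays spanned both the highest and the lowest value of the 9. The differences were 0.07 (95% interval -0.52 to 0.66) in CH and 0.23 in IH for PGRP-SC2, and -0.35 (-1.57 to 0.87) and -0.19 for PGRP-SB1. PGRP-SB2, next to PGRP-SB1 on 3L, was dim, at 31.3 to 162 over the 9 arrays, and overlapped in all comparisons.

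The thioester-containing proteins Tep3 and Tep4, complement-like proteins of the hemolymph, differed little between groups. Tep4 gave 7842, 7581 and 7502 in NC, 8728, 7091 and 6376 in CH, and 7641, 9177 and 7648 in IH. Tep3 gave 1155, 1172 and 1275 in NC, 883, 1196 and 1113 in CH, and 752, 1613 and 1000.0 in IH. NC arrays were close together for both genes, and the hypoxic arrays lay on both sides of them. The CH differences were -0.06 with SE 0.17 for Tep4 and -0.18 with SE 0.28 for Tep3, and in IH they were 0.09 and -0.17. Tep5Psi, annotated as a pseudogene by its symbol, had the lowest CH difference of the 43, -0.86 with SE 0.60. It was dim, at 20.5 to 27.6 in CH and 14.9 to 107 in NC, and the arrays overlapped.

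The signalling genes are given in the order of the pathways. Relish (Rel), the NF-kappaB factor of the Imd pathway, gave 7888, 7388 and 6876 in NC, 11108, 10305 and 9736 in CH, and 9195, 9008 and 7806 in IH. Every CH array lay above every NC and every IH array, and the lowest IH array lay within the NC range. The means were 7384 ± 506, 10383 ± 689 and 8670 ± 754 (SD, n = 3 each), and the ratio of CH to NC was 1.41. The log2 difference was 0.49 with SE 0.15 (95% interval 0.14 to 0.84) in CH, with an unadjusted limma p of 0.0118 and an adjusted p of 0.790. It was 0.23 in IH (-0.12 to 0.58) and 0.26 between CH and IH (-0.09 to 0.61). Over the 9 arrays left out in turn, the CH difference ran from 0.44 to 0.54 and the unadjusted limma p from 0.0092 to 0.050. Under centring on the array median, the limma p was 0.063.

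The adaptor imd, a death-domain protein that gives the pathway its name, gave 782, 957 and 914 in NC, 1356, 965 and 999 in CH, and 1130, 1082 and 1515 in IH. Every hypoxic array lay above the highest NC array, CH array 2 by a narrow margin. The log2 differences were 0.31 with SE 0.21 in CH and 0.47 with SE 0.21 in IH, with unadjusted limma p of 0.180 and 0.0533. The regulatory subunit of the kinase complex, key, was among the steadiest genes on the arrays, between 5337 and 6395, and differed by 0.01 in CH and -0.01 in IH, with a CH interval of -0.34 to 0.35.

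In the Toll pathway, the ligand gene spz lay between 4053 and 5867 and differed by 0.01 in CH and 0.12 in IH. The receptor gene Tl lay between 7840 and 17104, with both extremes on IH arrays, and differed by -0.0044 in CH and -0.11 in IH. Myd88, the adaptor, had a residual SD of 0.067, at the percentile of 1 among all genes. It ran only from 3469 to 4006, with a difference of -0.03 in CH. The kinase gene pll lay between 2298 and 3665 and differed by 0.03 in CH and 0.05 in IH. None of these genes had arrays that separated any groups.

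The inhibitor and the transcription factors came next. The gene cact, for the IkappaB protein that holds Dif and dorsal in the cytoplasm, gave 16736, 13846 and 14357 in NC, 16902, 15366 and 15770 in CH, and 17746, 11177 and 15359 in IH. The groups overlapped, with differences of 0.10 in CH and -0.04 in IH. A second, dimmer probe set with the same symbol, looked up after its values were seen, gave 1808, 2153 and 1879 in NC, 821, 1369 and 1667 in CH, and 1743, 2930 and 1791 in IH. All of its CH arrays lay below all of its NC and IH arrays. The CH difference was -0.65 with an unadjusted limma p of 0.0658. Between CH and IH it was -0.75 with an unadjusted limma p of 0.0378. The probe sets of cact thus disagreed. The second probe sets of dl and Tl overlapped between groups, as did the brighter ones.

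Dif, a factor of the adult Toll response, gave 275, 410 and 358 in NC, 484, 473 and 426 in CH, and 344, 486 and 258 in IH. The CH arrays lay above all NC arrays, the IH arrays on both sides of them. The log2 difference was 0.41 with SE 0.25 in CH, with an unadjusted limma p of 0.143, and 0.03 in IH. The gene dl, for dorsal, lies close to Dif on 2L, with 2 genes between them. It gave 4559 to 5956 in NC, 5192 to 7186 in CH and 4085 to 6986 in IH, and the groups overlapped.

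**Figure D2:**
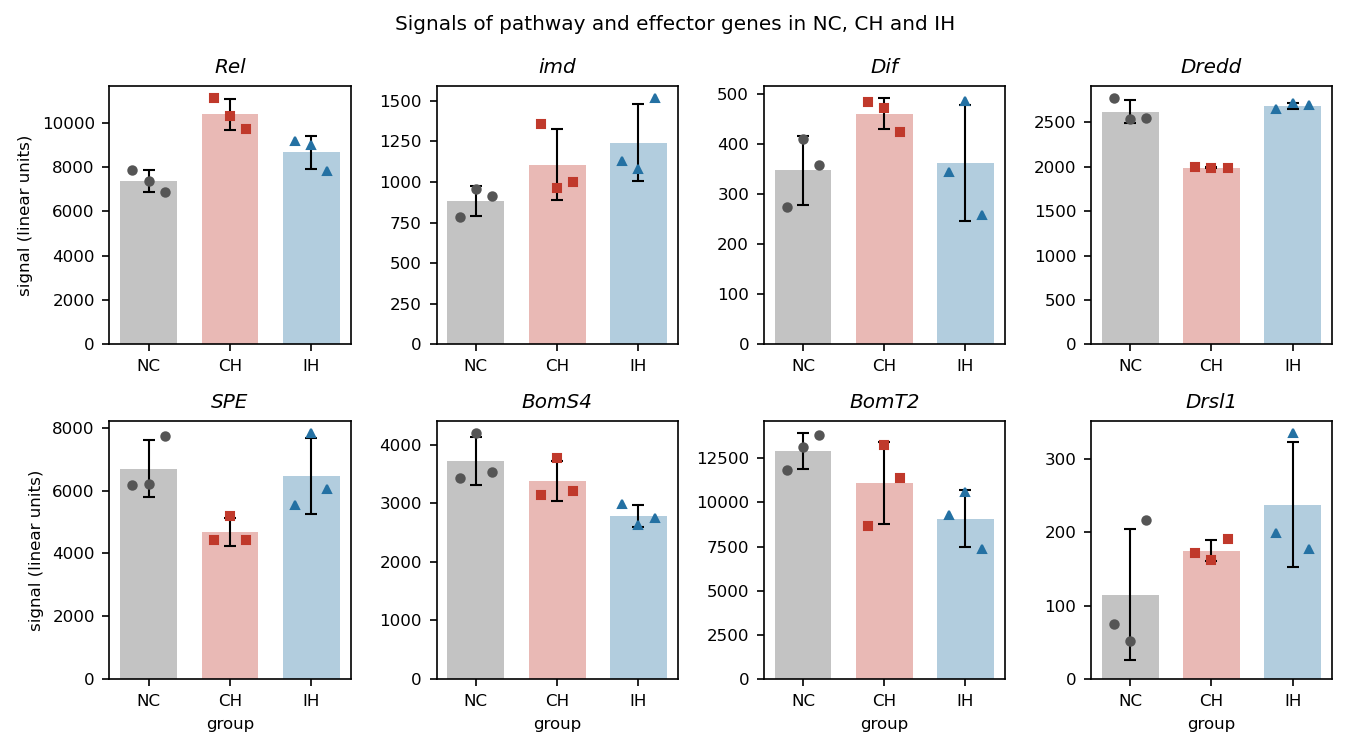
Signals (linear units) of 8 genes in NC, CH and IH; points are single arrays, bars the mean and error bars the SD of 3 arrays. Rel is higher on each CH array (9736 to 11108) than on any NC array (6876 to 7888), and Dredd and SPE are lower.

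The Bomanins are short secreted peptides of the Toll response, and 8 were measured. BomBc2, BomS2 and BomS4 are next to one another on 2R, as are BomS5, BomS6 and BomT2, and BomBc3 lies beside BomT3 on 3R. All 8 had a mean below NC in CH, from -0.29 to -0.03 with a median of -0.21, and all 8 in IH, from -0.52 to -0.05 with a median of -0.30. With each array centred on its median, 1 of 8 was above 0 in IH, where 62.8% of all genes then were. On single arrays the median Bomanin stood at -0.60, 0.08 and -0.11 relative to the NC mean in CH and at -0.37, 0.12 and -0.49 in IH, against -0.17, 0.06 and 0.13 in NC. CH arrays 2 and 3 and IH array 2 were thus within the NC range. Neighbours in one cluster and peptides of similar sequence are not separate observations, and shared signal among near-identical members could not be told apart from these files.

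BomS4 was the Bomanin of lowest spread and gave 3434, 4197 and 3531 in NC, 3149, 3765 and 3204 in CH, and 2984, 2622 and 2744 in IH. Every IH array lay below every NC and every CH array. The log2 difference in IH was -0.41 with SE 0.16 (95% interval -0.78 to -0.04), with an unadjusted limma p of 0.0333, and in CH it was -0.14. Over the 9 arrays left out in turn, the IH difference ran from -0.47 to -0.32 and the unadjusted limma p from 0.0341 to 0.129 (without NC array 2), and the p was 0.156 with median centring. Between CH and IH it was 0.27, with an interval of -0.10 to 0.64. BomT2 gave 11809, 13110 and 13800 in NC, 8635, 13244 and 11388 in CH, and 9309, 10562 and 7358 in IH. Its IH arrays lay below all NC arrays and overlapped those of CH. The IH difference was -0.52 with SE 0.22, with an unadjusted limma p of 0.0424. It ran from -0.64 to -0.38 over the arrays left out in turn, with an unadjusted limma p from 0.0248 to 0.146 (without IH array 3). Under the 19 alternatives, the p rose past 0.05 in 7 for BomS4 and in 8 for BomT2.

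The other 6 Bomanins overlapped between groups in all 3 comparisons. BomS2 gave 50519, 56613 and 51694 in NC, 40093, 54431 and 46549 in CH, and 50330, 60367 and 34913 in IH. BomBc2 gave 29132, 34938 and 37704 in NC, 21883, 35321 and 31002 in CH, and 26924, 43181 and 29835 in IH. In both genes IH array 2 was the highest of the 9 and CH array 1 the lowest of its group. The IH differences of the 6 ran from -0.50 for BomS5 to -0.05 for BomBc2, with SE from 0.23 to 0.39.

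**Figure D3:**
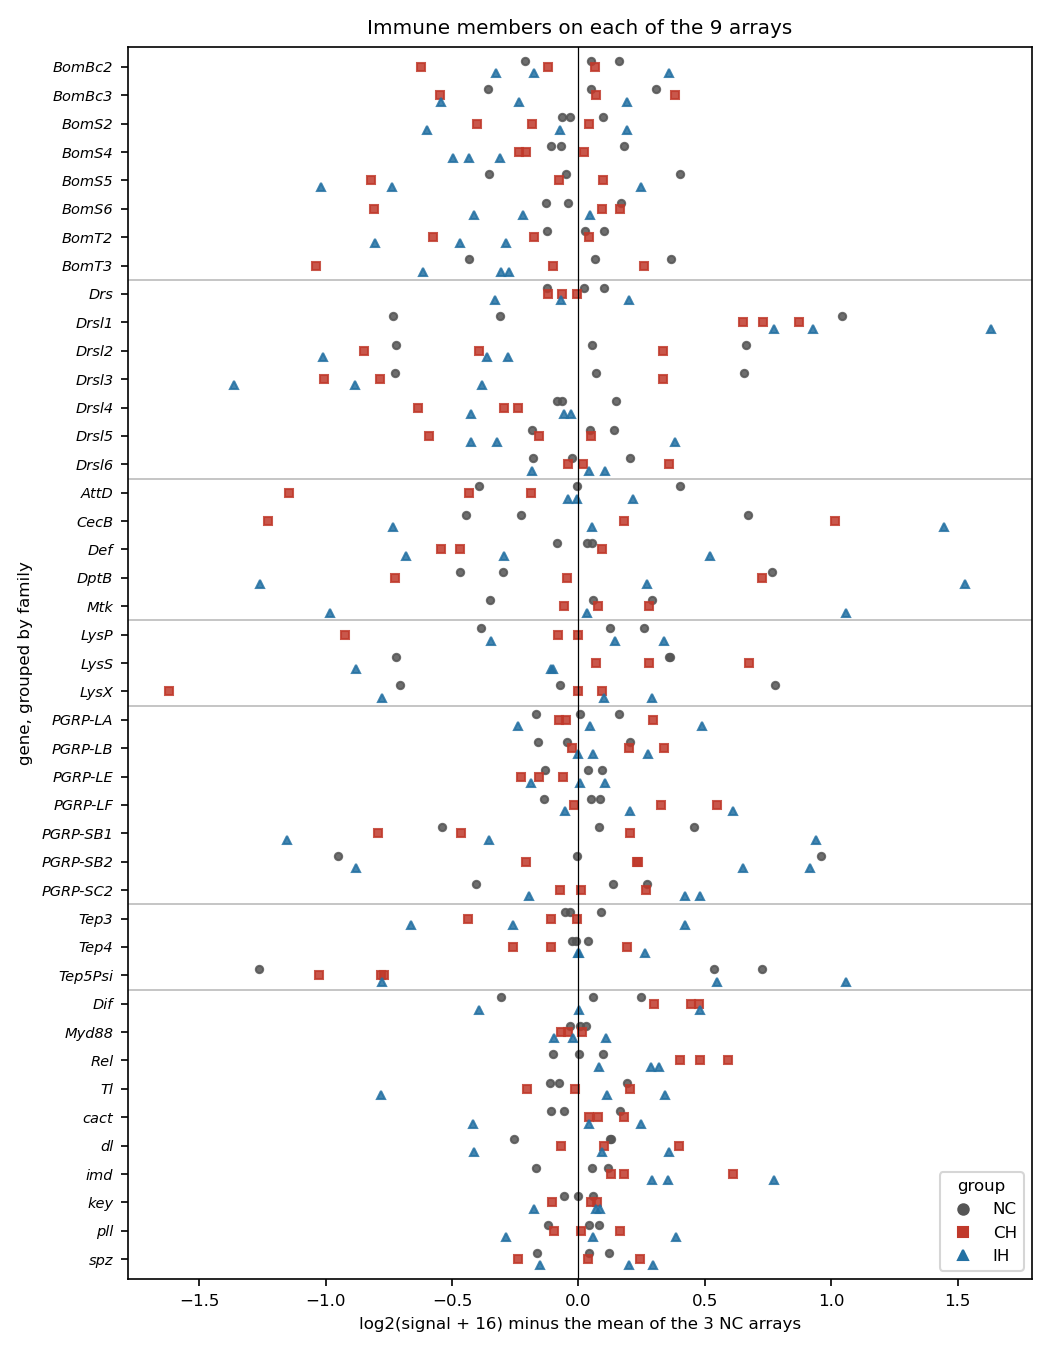
Log2(signal + 16) of each of the 43 genes on each of the 9 arrays, minus the mean of the 3 NC arrays, grouped by family. Groups overlap for most genes; the CH arrays of Rel lie together above the NC arrays, and the IH arrays of BomS4 lie below them.

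Drosomycin (Drs), the main antifungal peptide of the fat body, was steady. It gave 47028, 40237 and 44479 in NC, 43614, 41941 and 40337 in CH, and 41750, 50353 and 34867 in IH. The IH arrays bracketed those of the other groups. The log2 difference was -0.06 in CH (95% interval -0.47 to 0.35) and -0.07 in IH (-0.47 to 0.34), and a change past the fold limit lay outside both intervals. The Drosomycin-like genes Drsl1 to Drsl6 lie near Drs on 3L.

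Drsl4 gave 16907, 14366 and 14579 in NC, 12929, 12432 and 9819 in CH, and 14667, 14933 and 11349 in IH. It was the only effector with all CH arrays below all NC arrays, with a log2 difference of -0.39, SE 0.19 and an unadjusted limma p of 0.0731. In IH it differed by -0.17 and overlapped. Drsl1 was dim, at 75.4, 52.1 and 217 in NC, 172, 162 and 191 in CH, and 199, 335 and 177 in IH. NC array 3 lay above all CH arrays and above array 3 and array 1 of IH, so the groups overlapped. The IH difference was 1.11 with SE 0.44, the highest of the 43, with an unadjusted limma p of 0.0350. Over the arrays left out in turn it ran from 0.74 to 1.63, with limma p from 8.4e-04 to 0.125.

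The remaining Drosomycin-like genes overlapped between groups. Drsl2 differed by -0.30 in CH and -0.55 in IH, and Drsl3 by -0.49 and -0.88, with SE of 0.42 and 0.47. Drsl3 gave 271, 729 and 480 in NC and 168, 347 and 241 in IH, and array 2 was the highest of every group for both genes. The IH array of Drsl3 lay below the NC array of the same number in all 3 pairs. With the replicate number as a block, the unadjusted limma p of Drsl3 in IH was 0.00905 (adjusted p 0.736), and that of Drsl1 was 0.0572. Drsl5 differed by -0.23 and -0.12. Drsl6, at 7.9 to 18.8, was near the floor of the arrays.

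Of the peptides of the Imd pathway, Diptericin B and Cecropin B varied more within groups than between them. Diptericin B (DptB) gave 17590, 8427 and 7483 in NC, 17150, 10042 and 6258 in CH, and 29911, 12491 and 4310 in IH. Array 1 was the highest and array 3 the lowest of each group, and the IH arrays spanned 6.94-fold. Its differences were -0.01 in CH and 0.18 in IH, both with SE 0.70, and the 95% interval in CH ran from -1.63 to 1.60. Cecropin B (CecB) gave 1238, 561 and 656 in NC, 1573, 320 and 876 in CH, and 2127, 800 and 458 in IH. Array 1 was again the highest of each group, and the differences were -0.01 and 0.26 with SE 0.69.

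Attacin D (AttD) gave 702, 398 and 526 in NC, 462, 230 and 388 in CH, and 615, 513 and 526 in IH. The CH arrays lay below all IH arrays but overlapped the NC arrays, since NC array 2 was low. The log2 difference was -0.59 with SE 0.29 in CH, with an unadjusted limma p of 0.0800, 0.05 in IH, and -0.64 between CH and IH, with a limma p of 0.0597. Metchnikowin (Mtk), an antifungal peptide, gave 13253 to 20707 in NC and 16271 to 20542 in CH, and 35208, 17312 and 8553 on IH arrays 1 to 3. The IH arrays of Mtk spanned 4.12-fold, against 1.26-fold in CH. Defensin (Def) gave 9270 to 10202 in NC, 6748 to 10511 in CH and 6129 to 14110 in IH, with differences of -0.31 and -0.15.

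Lysozymes cleave bacterial cell walls, and several of them serve digestion in the fly gut. LysP gave 3024, 4728 and 4313 in NC, 2075, 3737 and 3943 in CH, and 3108, 4369 and 5003 in IH. LysX gave 1753, 4935 and 2728 in NC, 923, 2869 and 3060 in CH, and 1666, 3513 and 3082 in IH. Array 1 was the lowest of each group for both genes, and the groups overlapped. The CH differences were -0.34 with SE 0.32 for LysP and -0.51 with SE 0.56 for LysX, and in IH they were 0.05 and -0.13. LysS, adjacent to LysP on 3L, gave 195, 428 and 430 in NC, 404, 348 and 537 in CH, and 308, 306 and 173 in IH. Its CH arrays lay above all IH arrays, with a difference of 0.70, SE 0.36 and an unadjusted limma p of 0.0854.

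The members differed in how far arrays of one group lay apart. The residual SD on the log2 scale had a median of 0.31 over all genes, 0.41 over effectors, 0.29 over recognition genes and 0.22 over signalling genes. The 5 antimicrobial peptides other than Drosomycins and Bomanins had a median of 0.63. DptB, at 0.99, was at percentile 96.9 of all genes and CecB, at 0.98, at percentile 96.7. Rel and key, at 0.11 each, were at percentiles 5.52 and 5.10.

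Part of the spread went with the replicate number of the labels, a pattern looked for after the values were seen. For 12 of the 43 genes (27.9%), array 1 was the highest in all 3 groups, against 19.4% of all genes. These were AttD, CecB, DptB, Drsl6, PGRP-LE, PGRP-SB1, Rel, Tl, cact, dl, pll and spz. For 6 genes (14%), BomBc2, BomT3, LysP, LysX, PGRP-SC2 and Tep3, array 1 was the lowest in all 3 groups, against 14.5% of all genes. Over 8 midgut markers, mostly trypsin-like and Jonah proteases, the summed signal was 409060, 579270 and 580720 in NC, 438980, 574720 and 657270 in CH, and 350330, 686750 and 680350 in IH. The midgut sum was thus also lowest on array 1 of each group, and so were the sums over 12 hemocyte markers, 6 neuron markers and 3 constitutive reference genes. The part of these in the immune genes was not tested.

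**Figure D4:**
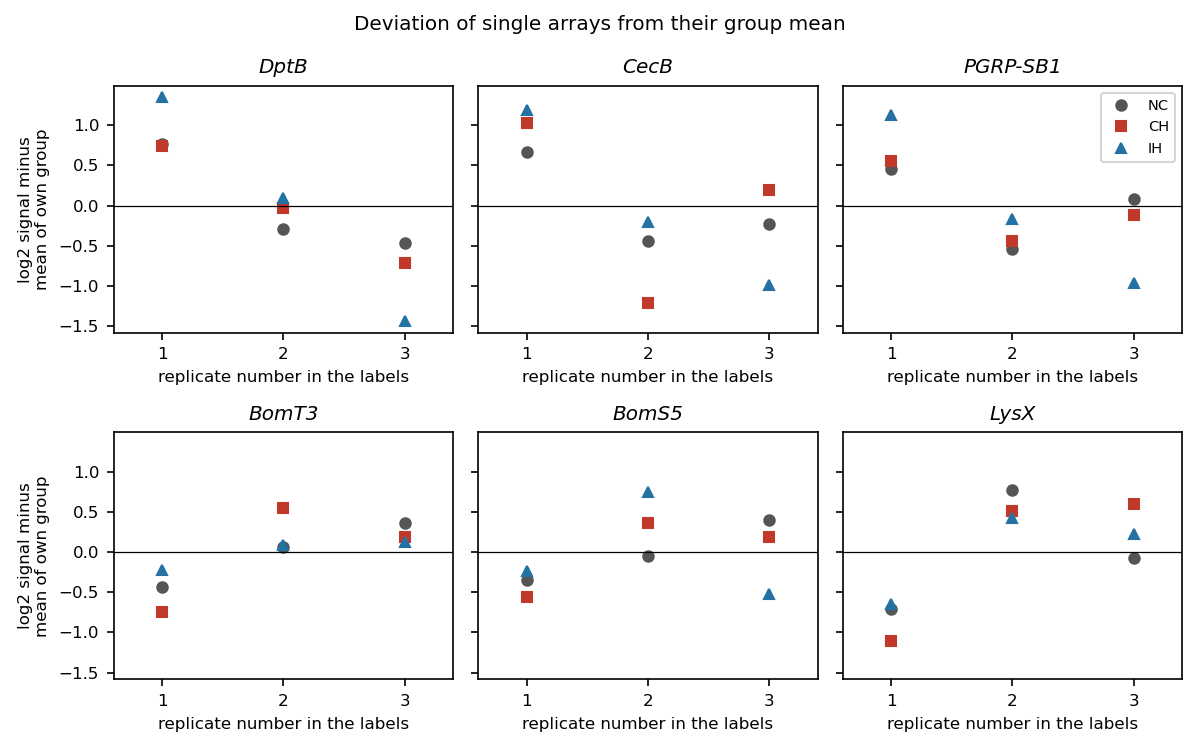
Log2 deviation of each array from the mean of its own group (vertical axis) against the replicate number in the labels, for 6 genes. DptB, CecB and PGRP-SB1 are highest on array 1 of every group; BomT3 and LysX are lowest there, and BomS5 in NC and CH.

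Other genes of the pathways were taken from lists. Of 17 further Imd pathway genes, none was called in any comparison, and in CH 9 of 17 were above 0 with a median of 0.02. Dredd, the caspase that cleaves Relish, gave 2772, 2541 and 2553 in NC, 1992, 1981 and 1987 in CH, and 2652, 2720 and 2696 in IH. Every CH array lay below every NC and IH array, while IH and NC overlapped. The log2 difference was -0.40 with SE 0.14 in CH, with an unadjusted limma p of 0.0186 and an adjusted p of 0.880. Between CH and IH it was -0.43, with a limma p of 0.0121 and an adjusted p of 0.750. Over the arrays left out in turn, the unadjusted limma p ran from 0.0113 to 0.0611 in CH. Between CH and IH it ran from 0.0135 to 0.0379. The gene pirk, for an inhibitor of the Imd pathway and named after its values were seen, had CH arrays at 1581 to 2362, above all NC arrays at 1337 to 1546, with a difference of 0.35.

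Among 22 further Toll pathway genes, 0 were called in CH, 7 were above 0 and the median was -0.11. The summed signal of the 22 was 39991 to 41086 on CH arrays, 44803 to 46883 on NC arrays and 42018 to 47525 on IH arrays. A sum without SPE was added after seeing the data. For the remaining 21 it was 35547 to 36675 on CH arrays, 38608 to 39873 on NC arrays and 35974 to 39762 on IH arrays. CH thus lay below NC in both sums, and overlapped with IH once SPE was left out. SPE, the protease that cleaves Spätzle, gave 6165, 6196 and 7738 in NC, 4411, 5196 and 4425 in CH, and 5531, 7826 and 6044 in IH. Its CH difference was -0.51 with SE 0.19, with an unadjusted limma p of 0.0281 and an adjusted p of 0.952. Over the arrays left out in turn, that unadjusted limma p ran from 0.0127 to 0.106. Against IH the difference was -0.45. The proteases psh and ndl and the recognition gene GNBP2, named after their values were seen, also had all CH arrays below all NC arrays, with differences of -0.54, -0.54 and -0.48. In all, 4 of 22 (18.2%) did so, against 6.7% of all genes, and in IH 0 of 22, against 3.7%.

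Of 10 further Toll receptors and Spätzle-like ligands, 5 had a mean signal under 100 and none was called. Tollo, a Toll-family receptor, gave 2501, 2468 and 2592 in NC, 1991, 1582 and 2060 in CH, and 2440, 2053 and 2029 in IH. All hypoxic arrays lay below all NC arrays, with differences of -0.43 (unadjusted limma p 0.0325) in CH and -0.22 in IH. Over the arrays left out in turn, the CH limma p ran from 0.0284 to 0.128. Of 9 further lysozyme family genes, none was called. CG16756 gave 3682, 3249 and 3058 in NC, 2158, 2513 and 2239 in CH, and 2041, 2233 and 1227 in IH. Its hypoxic arrays lay below all NC arrays, with -0.53 in CH and -0.90 with SE 0.24 in IH, where the unadjusted limma p was 0.0054 and the adjusted p 0.932. CG11159 was dim, at 75.5 to 101 in NC and 156 to 260 in IH, with an IH difference of 0.98 and an unadjusted limma p of 0.0193. This limma p ran from 0.0054 to 0.0687 over the arrays left out in turn, and that of CG16756 in IH from 0.0029 to 0.0210. Of 4 other immune-induced peptides (Anp, IM33, Listericin and edin), none separated hypoxia from normoxia.

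Probe sets with several symbols were not counted as members. The set shared by PGRP-SC1a and PGRP-SC1b, secreted amidases, gave 8552 to 11281 in NC, 10460 to 12644 in CH and 5320 to 16173 in IH. The set shared by Pmi and PGRP-LD gave 373, 36.0 and 40.6 in NC, 292, 271 and 421 in CH, and 162, 253 and 341 in IH. Its NC array 1 stood apart from the other NC arrays, and the CH difference of 1.69 had an unadjusted limma p of 0.0455.

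Markers of the tissues that make these peptides were read beside them. All 12 hemocyte markers had a mean below NC in CH, where 48.6% of all genes were above 0. These differences ran from -0.97 (He) to -0.0018 (Pxn) with a median of -0.23, none with an unadjusted limma p under 0.05. In IH 9 of 12 were below NC, with a median of -0.17, where 45% of all genes were above 0. The summed signal of the 12 overlapped, at 87423 to 113110 in NC, 83374 to 113300 in CH and 76521 to 116860 in IH. Nplp2 alone gave 65499 to 86455 of it in NC. Of 7 fat body markers, 3 were above 0 in CH with a median of -0.26, and the sum lay at 117500 to 146860 in NC and 124030 to 129260 in CH. Lpin, a phosphatidate phosphatase on that list, was higher on every CH array, by 1.22 with SE 0.19 and an adjusted limma p of 0.169. Defining markers of both cell types (Hml at 1629 to 2714 and apolpp at 36470 to 56507) were present on all arrays, while lz and He were dim and Fbp1 was under 100. Male accessory gland and ejaculatory duct markers were above 0 in 11 of 12 in CH, with a median of 0.26, and in 5 of 12 in IH. For 4 of these 12 (33.3%) every CH array lay above every NC array, against 7.02% of all genes. None of the 12 had an unadjusted limma p under 0.05. Ovary markers were above 0 in 8 of 12 in CH, with a median of 0.18, while neuron markers were so in 1 of 6, with -0.09. None of these lists held a call, and their part in the immune genes was not tested.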

How the data were processed

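RNA from 9 whole-fly samples was hybridized to Affymetrix arrays. The authors used affy, from Bioconductor, for normalization and deposited linear intensities per probe set; the options used, any background step included, are not stated in the methods or labels. Unused columns numbered 0. Intensities have no read depth, and the 3 arrays per group limit the precision. Leaving out 183 control probe sets, log2(signal + 16) of 18769 probe sets was fitted by lmFit and eBayes of limma 3.58.1 (R 4.3.3), with all 9 arrays and no covariate, and p-values were adjusted by Benjamini-Hochberg over all probe sets. The VAMPIRE test of the methods was not run. The platform annotation gave a single symbol to 13647 probe sets. All 44 genes matched RefSeq by identifier, which was used for names, chromosome arms and gene order only.

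Members and the 12 gene lists were chosen with earlier results of these data known. Array values are given in full for members with an unadjusted p under 0.05, the brightest of each family and the signalling genes of smallest p. List genes are named at an unadjusted p under 0.05, at most 4 a list, and other genes were named after their values were seen. Alternatives were the replicate block, only the 2 groups compared, quantile normalization, centring on the array median, pseudocounts of 1 and 50, removal of the dimmest 40%, a trended robust prior, the mean of all probe sets, no fold limit and each array left out. Leaving out the arrays numbered 1 and the Toll pathway sum without SPE were added after seeing the data. The fit was tested on simulated data with 200 changed probe sets and noise independent between arrays. The changes set there exceeded most differences of the members, and arrays of the same number were not linked.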

Additional observations from a re-analysis of the deposited data

How the results depend on the processing

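No immune gene was called in any comparison under any of the alternatives run, no fold limit included. Of 321 alternative values of the counts and class medians, 277 stayed within 1.5 times the main count or the spread between replicates and 44 did not. The number of arrays limits these counts, and arrays overlap less often when fewer are compared, so the counts of genes whose arrays did not overlap grow by construction when arrays are left out. The cause of the other shifts was not tested. Some of the 277 values within these limits could not have moved. Class medians are the same by construction with the replicate block, with only the 2 groups compared, or without an array of a group not compared. Leaving out such an array also cannot change which arrays overlap.

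At an unadjusted limma p under 0.05, CH against NC gave 1 gene, and 3 with the replicate block, 2 with the dimmest 40% left out, 0 with median centring, 2 with the trended robust prior and 2 without the arrays numbered 1. IH against NC gave 3 genes, and 1 with median centring, with only the 2 groups compared or without the arrays numbered 1. CH against IH gave 0, and 3 with the replicate block and 1 each with the dimmest 40% left out, median centring, only the 2 groups compared or without the arrays numbered 1. Over arrays left out in turn these counts ran from 1 to 2 (2 without NC arrays 1, 2 or 3 or CH array 1), from 0 to 4 (0 without NC array 2, 1 without NC array 3, CH array 3 or IH arrays 1 or 3) and from 0 to 2 (2 without NC array 1, 1 without CH array 1 or IH arrays 1 or 2). Genes whose arrays did not overlap numbered 4 in CH against NC, 3 in IH against NC and 4 in CH against IH. They numbered 5 with quantile normalization in IH against NC, 2 with median centring in CH against IH, and 11, 10 and 15 without the arrays numbered 1. With 1 array left out they ran from 4 to 10 (7 or more without NC arrays 1 or 2 or CH arrays 1 or 2), from 3 to 12 (9 without NC array 1, 12 without IH array 2, 5 without IH array 3) and from 4 to 9 (7 or more without CH array 1 or IH arrays 1 or 3). Class medians that moved beyond the replicate spread were recognition in CH against NC, from -0.13 (without NC array 2) to 0.0157, signalling in IH against NC, from -0.0134 to 0.211 (without IH array 2), and recognition in CH against IH, from -0.132 to 0.0504 (without IH array 2).

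Replicate numbers do not name a shared batch in the labels. Deviations from the group means of arrays with the same number correlated at 0.092 to 0.322 over probe sets and those with different numbers at -0.212 to 0.083, and all 9 arrays correlated best with their own number, a hint from the data and not from the design. The same-numbered arrays of NC and IH correlated at 0.113 to 0.322. Those of NC and CH went down to 0.092 and those of CH and IH to 0.097. No comparison was paired by number in the main fit, and the block was an alternative run for all 3 comparisons. With the replicate number as a block, 0 genes were called and the smallest adjusted limma p was 0.424 in CH against NC (Rel), 0.736 in IH against NC (Drsl3) and 0.495 in CH against IH (AttD). Its genes at an unadjusted p under 0.05 were AttD, Drsl4 and Rel, then BomS4, BomT2 and Drsl3, then AttD, LysP and Tep5Psi.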
